A study of Saccharomyces cerevisiae with 27 samples.

Results

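Transcript levels of Saccharomyces cerevisiae strain X2180-1A were compared between 60 min and 30 min after a shift from 28 to 41 °C, the interval in which the early heat response began to give way. The comparison rests on 6 of the 27 one-colour Affymetrix arrays of the series, namely the 3 titled as stressed at 41 °C for 60 min and the 3 for 30 min. All groups shared the strain, synthetic medium with 2% glucose and no amino acids, and growth in aerated 500 ml fermentors. Heat was applied in mid-exponential growth at an OD600 of 0.5 and the stress temperature was reached within 5 min, after which it was kept. A further 9 arrays, 3 per group, served as reference points, the control cultures at 28 °C sampled at 0 min and at 120 min and the heated cultures at 10 min. Heated cultures at 120, 240 and 360 min are shown only as later time points. All 27 arrays entered the fit for its estimate of spread. The labels call the replicates biological, and the cultures were sampled repeatedly, so arrays of different times may come from the same culture.

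A temperature upshift makes budding yeast divert transcription for a limited time. The heat shock factor Hsf1 raises chaperone genes, the zinc finger factors Msn2 and Msn4 raise a broad set of protective genes for trehalose, glycogen and antioxidant enzymes, and genes for ribosomes, ribosome assembly and biosynthesis are turned down while growth slows. In cells that adapt, these movements are transient and transcripts settle at levels between the peak and the start. The comparison of 60 with 30 min shows which transcripts were on the way back, which had stayed and which went past the control level.

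Mean signal per array lay between 748 and 808 at 30 min and between 873 and 890 at 60 min. The exact permutation p was 0.1, the smallest that 3 against 3 arrays allow, and the number of arrays limits the precision. Replicates correlated with r of 0.987 to 0.992 at 30 min and 0.991 to 0.995 at 60 min across the genes. Probe sets for non-yeast transcripts averaged, on the log2 scale, 5.48 ± 0.20 (SD, n = 3) at 30 min and 5.31 ± 0.14 (SD, n = 3) at 60 min, with an exact permutation p of 0.5. The 3′ to 5′ signal ratio of SRB4, a measure of RNA or label integrity, was 4.17 ± 0.22 and 4.12 ± 0.87 (SD, n = 3 each), with an exact permutation p of 0.9. On the control arrays at 0 min that ratio lay between 1.99 and 2.44 and the non-yeast log2 signal between 6.16 and 6.25, so both measures moved with heat against control, and their part in the distances from control was not tested. The 3′ to 5′ ratios of SPT15 and ACT1 differed less from control. For SPT15 the means were 2.8 at 30 min and 2.6 at 60 min, against 2.15 to 2.32 on the control arrays. For ACT1 they were 1.11 and 1.05, against 0.97 to 0.99. In RNA of whole cultures, fewer cells of a type and less RNA per cell cannot be told apart, and all values are relative to the other transcripts of an array. The labels state no mating type beyond the strain name. The a-specific MFA1 had 121 and the α-specific MF(ALPHA)1 1059 units of mean signal at 0 min (n = 3), which on different probe sets cannot be ranked and do not show a mating type.

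Signals are given below as quantile-normalized intensities, and differences as log2 after an offset of 114 was added to each intensity, so that folds of dim genes are understated. A change is the 60 min mean minus the 30 min mean unless another pair is named, with the limma standard error (SE) and an adjusted p from limma over all 5656 tested genes, called below 0.05. Of these genes, 4052 (71.6%) changed, 1824 (32.2%) upward and 2228 (39.4%) downward, and 1604 (28.4%) were not called. At least 2-fold, 415 genes (7.34%) rose and 263 (4.65%) fell, so upward changes were fewer in all but more often 2-fold. This split depended on the scaling, since in the intensities as deposited 2393 genes (42.3%) were called higher and 1490 (26.3%) lower, and 538 and 148 by at least 2-fold. A count of list members called is to be read against 32.2% higher and 39.4% lower over all genes, and a count as deposited against 42.3% and 26.3%. The median over all genes was −0.05 after quantile normalization and 0.09 as deposited, and small changes are to be read against that shift.

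At 30 min, 1531 genes lay 2-fold or more from the control at 0 min and were called, 729 (12.9%) higher and 802 (14.2%) lower. At 60 min 524 genes did, 304 (5.37%) higher and 220 (3.89%) lower. Of the 729 higher genes, 661 changed back toward the control, 53 had no called change and 15 rose further. Of the 802 lower genes, 741 changed back, 52 had no called change and 9 fell further. The higher genes kept a median of 52.0% of their log2 distance from control at 60 min (quartiles 36.8% and 68.5%), and the lower genes 37.8% (24.8% and 56.8%). These classes use the 30 min arrays both for the distance and for the change, which alone makes genes appear to return, so they are a description. With genes chosen instead at 10 min, on arrays that are not in the change, 435 of 456 higher genes (8.06% of all genes) fell (95.4%, against 39.4% of all genes) and 391 of 429 lower genes (7.58% of all genes) rose (91.1%, against 32.2% of all genes).

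**Figure D1:**
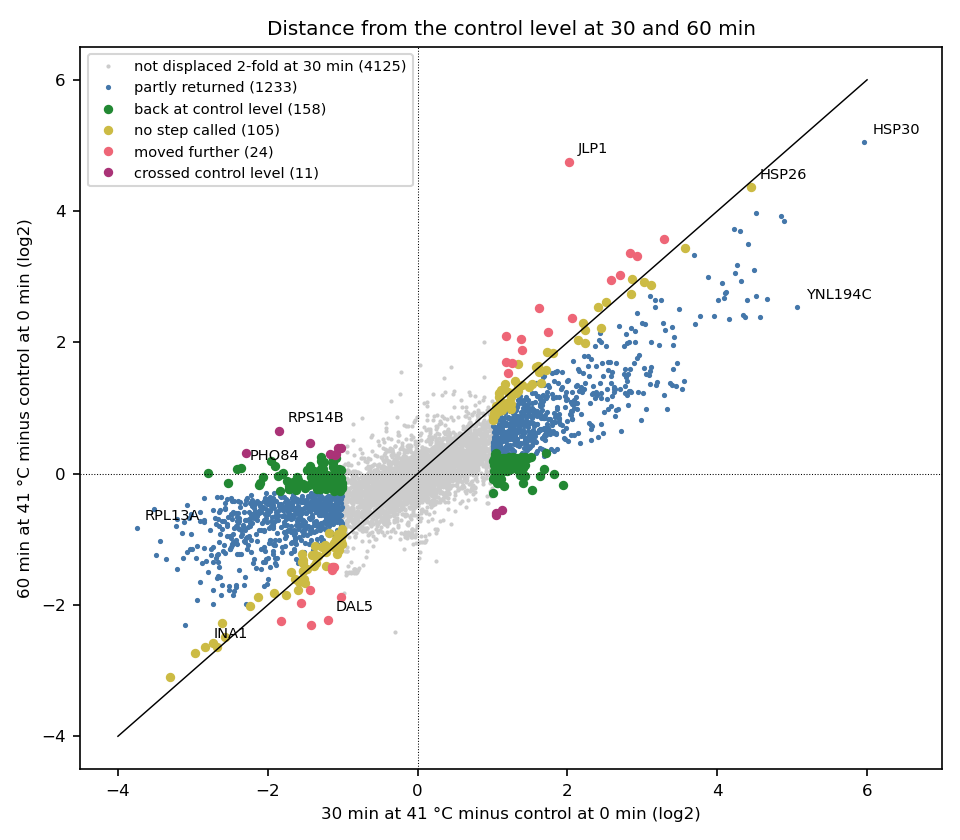
Log2 distance from the control at 0 min at 30 min (x axis) and 60 min (y axis) for each of the 5656 tested genes, coloured by class, with the line of equal distance. Most displaced genes lie between that line and 0, HSP26 and INA1 lie near the line, JLP1 stands far above it and RPS14B crosses to the other side of 0.

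Ribosomal proteins had the largest median rise of the gene lists. Of 80 measured cytosolic ribosomal protein genes 78 rose, 1 fell and 1 was not called, with a median change of 1.71, against 32.2% of all genes called higher and a median of −0.05. On the single arrays the list median relative to control was −2.38, −2.25 and −2.31 at 30 min and −0.43, −0.60 and −0.59 at 60 min. At 10 min the same median had been only −0.34, so the low point of this list lay at 30 min among the heat times sampled up to 60 min. At 60 min 75 of the 80 were still called lower than the control, against 37.4% of all genes. RPL15B fell by 0.49 and RPL31B changed by 0.12 without being called (adjusted p = 0.235). In the intensities as deposited 79 of the 80 were called higher and none lower, so the fall of RPL15B was not called there.

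RPL13A, a protein of the large subunit, had signals of 316, 398 and 367 at 30 min and of 3907, 3482 and 3049 at 60 min, against 6173, 5693 and 6922 in the control at 0 min. The groups were far apart, and RPL13A rose by 2.92 (SE 0.10, adjusted p = 9.6e-17), with 22.1% of its distance from control left. RPL7B, likewise of the large subunit, rose from 131, 166 and 154 to 1794, 1975 and 2156, a change of 2.98 (SE 0.11). It showed the largest rise among all genes that met the naming rule. RPS14B, of the small subunit, went from 1387, 1162 and 1123 to 7550, 7550 and 7162. Its control arrays had 4670, 4539 and 4822, so RPS14B passed the control level, by 0.65. Equal signals on different arrays, as here, come from equal ranks after quantile normalization. Most ribosomal proteins have a near-identical second gene whose transcript the probes may also bind, so values of single copies are uncertain.

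The machinery that makes ribosomes and uses them moved the same way. Of 146 ribosome biogenesis genes 139 rose, against 32.2% of all genes, 1 fell and 6 were not called, with a median of 0.98. Their median distance from control was −1.24 at 10 min, −1.63 at 30 min and −0.56 at 60 min, so this list was already low at 10 min. NOP1, the methyltransferase of box C/D small nucleolar ribonucleoproteins, had 240, 265 and 203 at 30 min and 1408, 1618 and 1661 at 60 min, a rise of 2.26 (SE 0.13, adjusted p = 3.3e-13). It kept 35.3% of its distance from a control of 3855, 3876 and 3746. The gene that fell was RIO1, a kinase of small subunit maturation, by 0.67. The 6 not called were REA1, EBP2, NOP19, FPR3, RRP15 and DBP2, an RNA helicase whose values follow with the genes that stayed low. Among RNA polymerase I and III genes 29 of 41 rose, against 32.2% of all genes, and 6 fell, led by RPC19 (2.39), a subunit of both enzymes, and by the polymerase I subunits RPA135 (2.17) and RPA49 (2.03).

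Translation factors rose in 32 of 41 cases, against 32.2% of all genes, and fell in 6, with a median of 0.99. RLI1, an ATP-binding cassette protein that splits ribosomes for recycling, rose from 180, 199 and 153 to 1547, 1636 and 1776, a change of 2.60. NEW1, a related protein that acts in translation termination, went from 368, 374 and 318 to 2893, 3406 and 3181 and was then 0.01 from its control level. Aminoacyl-tRNA synthetases rose in 18 of 20 cases, against the same 32.2%, the other 2 not called, with a median of 1.31. YHR020W, which encodes the prolyl enzyme, rose most among them (2.07), followed by HTS1 for histidine (1.67), ILS1 for isoleucine (1.56) and GRS1 for glycine (1.54). The cytosolic CCT and prefoldin genes, whose products fold actin and tubulin, rose in 14 of 15 cases with a median of 0.41, against −0.05 over all genes.

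**Figure D2:**
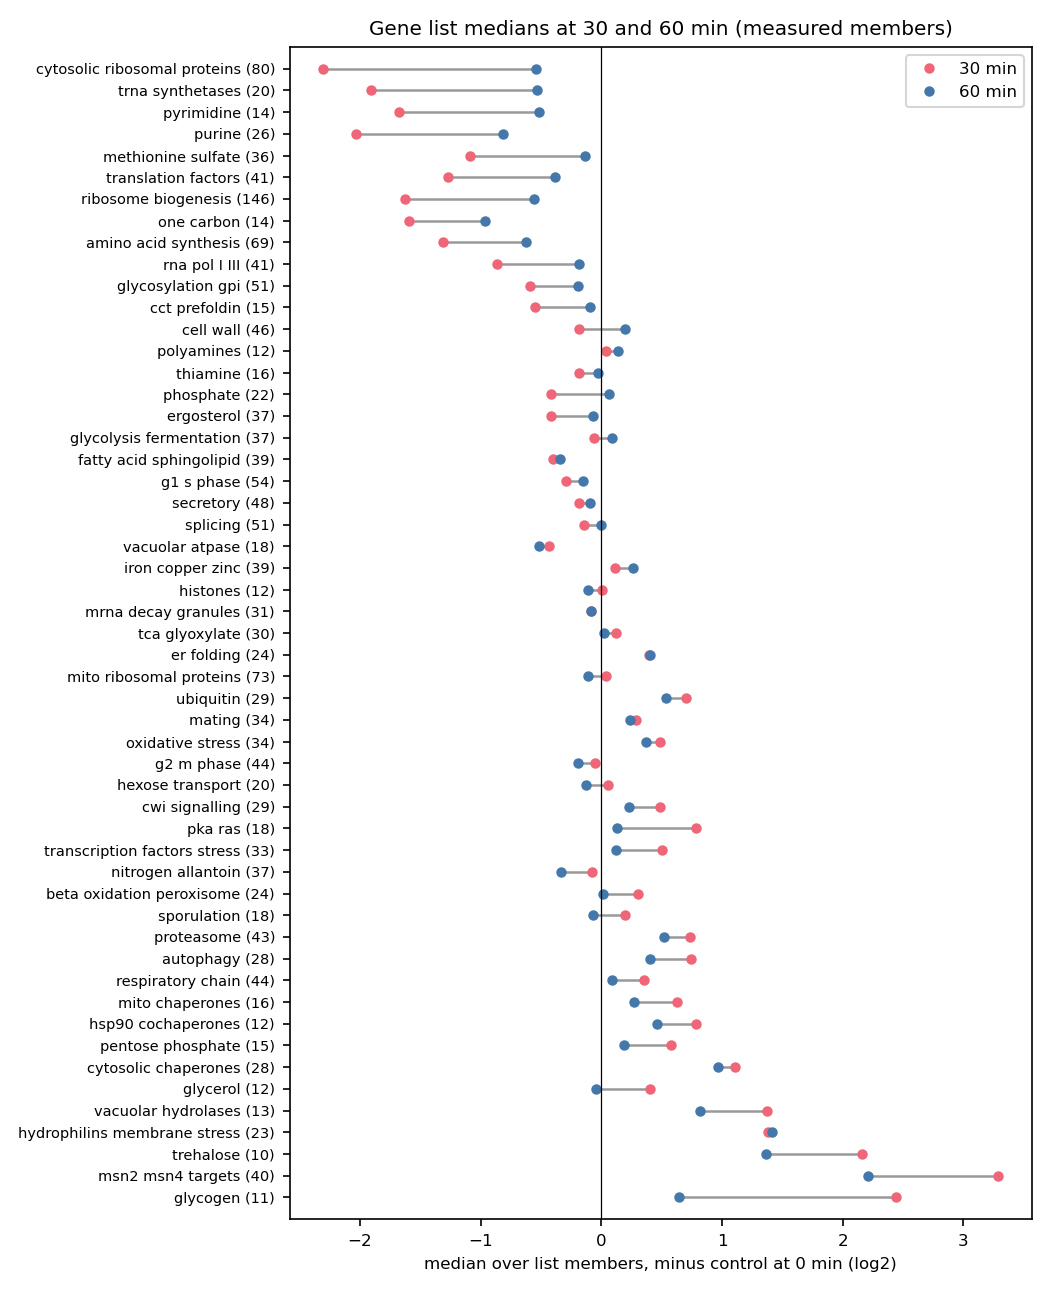
Median log2 distance from the control at 0 min over the measured members of each of 53 gene lists (number in brackets) at 30 min (red) and 60 min (blue), ordered by the median change. Ribosomal proteins moved from −2.30 to −0.54, glycogen genes from 2.44 to 0.64, and the cytosolic chaperones from 1.11 to 0.97. The gap between both medians of a list is not its median change, since the medians can fall on different genes. The median change was −0.41 for the chaperones, and −0.63 for the hydrophilin and membrane stress genes, whose medians were 1.38 and 1.41.

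Of 36 genes of methionine synthesis and sulfate assimilation 27 rose, against 32.2% of all genes, 3 fell and 6 were not called, with a median of 0.99. The list median relative to control was −1.08, −1.06 and −1.15 on the 30 min arrays and −0.08, −0.16 and −0.13 on the 60 min arrays. Among the 20 members displaced at 30 min a median of 14.4% of the distance was left, against 44.5% over all displaced genes. MET3, the ATP sulfurylase that activates sulfate, had 660, 793 and 613 at 30 min and 4713, 4903 and 4563 at 60 min, above its control of 4077, 3526 and 3755. The change was 2.60 (SE 0.08, adjusted p = 5.0e-18), and MET3 ended 0.31 above the control. MET10 and MET5, the sulfite reductase subunits, rose by 2.49 and 2.47, MET6, the methionine synthase, by 1.94, and SAM1, which makes S-adenosylmethionine, by 2.11. The members that fell were the regulators MET4 and MET31 and the methylenetetrahydrofolate reductase MET12, by 0.33, 0.27 and 0.23, and in the intensities as deposited these falls were not called.

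MMP1, the S-methylmethionine permease, returned from 248, 233 and 162 to 1263, 1099 and 1099, next to a control of 1379, 1353 and 1129. MUP1, the high-affinity methionine permease, had not been called at 30 min (530, 529 and 409, against 531, 672 and 562 in the control) and rose to 1783, 1882 and 2117. Its log2 distance from control at 10 min had been −1.03. The sulfate permeases SUL1 and SUL2 differed, with SUL2 back at the control level after a rise of 1.48, while SUL1 changed by 0.20 without a call (adjusted p = 0.29) and lay 3.10 below the control. The difference between both permeases was not tested.

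Amino acid synthesis genes rose in 58 of 69 cases, against 32.2% of all genes, and fell in 3, with a median of 0.79. ILV3, a dehydratase of the isoleucine and valine pathway, rose by 1.88, PRO1 of proline synthesis by 1.64 and ARO2, the chorismate synthase, by 1.60. GCN4, the activator of amino acid synthesis genes, rose from 3294, 3714 and 2928 to 6134, 6341 and 7063, next to a control of 6712, 7100 and 6712. Purine genes rose in 21 of 26 cases and fell in 3, and pyrimidine genes rose in 10 of 14 and fell in 2, with medians of 1.01 and 1.13, again against 32.2% of all genes called higher. PRS3, which supplies phosphoribosyl pyrophosphate, rose by 2.33, the inosine monophosphate dehydrogenases IMD3 and IMD4 by 1.93 and 1.69, and the CTP synthase URA7 by 1.87. Of the purine pathway itself ADE8 fell further below control, though its fall was not called without any one of 3 arrays or as deposited. ADE2 had no called change, at 1417, 1398 and 1500 and then 1523, 1796 and 1625, against 4752, 4634 and 5250 in the control, but was called higher as deposited (0.39, adjusted p = 0.0094). In one-carbon metabolism 9 of 14 genes rose, against 32.2% of all genes, and 2 fell. Those that rose included SHM2, the cytosolic serine hydroxymethyltransferase (1.44), and MIS1 of mitochondrial folate metabolism (1.23). The list still lay 0.96 below control.

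Membrane and surface genes moved less as lists, with wide differences among their members. ERG3, a desaturase of ergosterol synthesis, went from 1814, 2111 and 1798 to 6922, 7510 and 7865 and passed its control of 5062, 5598 and 5347 by 0.47. Of 37 ergosterol genes 18 rose, against 32.2% of all genes, and 7 fell, with a median of 0.16, and as deposited 24 rose, against 42.3%, and 3 fell, with a median of 0.38. CYB5, the cytochrome that feeds electrons to sterol and lipid enzymes, rose by 2.15, and ELO3 and ELO2, which elongate very long fatty acids, rose by 1.90 and 1.53. Cell wall genes rose in 21 of 46 cases and fell in 8, led by the glucanase EXG1 (1.81) and the transglycosylase UTR2 (1.49), while SPI1, a wall protein of stress and stationary phase, fell by 1.36. The median of the wall list was 0.25 and, as deposited, 0.40 with 29 rising and 7 falling, against 32.2% and 42.3% of all genes called higher. Genes of protein glycosylation and GPI anchors rose in 36 of 51 cases, against 32.2% of all genes, and fell in 3, with MNN11 of mannan synthesis highest (1.32). PHO84, the high-affinity phosphate transporter, had 376, 666 and 474 at 30 min and 2232, 3734 and 3807 at 60 min, next to a control of 2981, 3290 and 2735. Replicate 1 was the lowest at both times, and the rise of 2.43 (SE 0.16) far exceeded that spread.

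Targets of Msn2 and Msn4 fell widely. Of 40 measured genes 35 fell and the other 5 were not called, with a median of −1.13, against 39.4% of all genes called lower. The list median above control was 3.37, 3.11 and 3.37 on the 30 min arrays and 2.24, 2.12 and 2.15 on the 60 min arrays, and all 40 members were still called higher than the control at 60 min, against 31.8% of all genes. CTT1, the cytosolic catalase, fell from 5135, 4700 and 5119 to 1423, 1005 and 1254 (−1.94, SE 0.13), and 55.4% of its log2 distance from a control of 126, 133 and 150 remained. OM45, a protein of the mitochondrial outer membrane, fell from 2065, 1274 and 2482 to 382, 235 and 239 (−2.34). SIP18, a hydrophilin of desiccation tolerance, fell from 3101, 1526 and 2090 to 639, 308 and 309 (−2.14). Replicate 2 was the lowest at 30 min in both genes, yet still above every 60 min array.

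The largest fall under the naming rule was that of YNL194C, a membrane protein of the eisosome family, from 7130, 6046 and 5836 to 1320, 771 and 960 (−2.54, SE 0.16, adjusted p = 9.4e-13). Its control signals were 73.2, 82.3 and 77.6, so YNL194C remained 2.53 above control. FMP45, of the same family, fell by 2.00. APE1, a vacuolar aminopeptidase delivered by selective autophagy, fell from 5762, 5614 and 6363 to 1228, 1165 and 1297, and ATG19, its receptor, fell by 1.23. Vacuolar hydrolase genes fell in 10 of 13 cases, the other 3 not called, and autophagy genes fell in 20 of 28 and rose in 5, with ATG7 (−1.28) and ATG8 (−1.10) among them, against 39.4% of all genes called lower. As deposited 10 hydrolase genes fell and none rose, and 18 autophagy genes fell and 5 rose, against 26.3% called lower.

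Genes of both storage carbohydrates fell, those of glycogen by a larger median than those of trehalose. Of 11 glycogen genes 10 fell, against 39.4% of all genes, and 1 was not called, with a median of −1.48, and a median of 30.9% of the distance of the 9 displaced members remained. GSY2, the main glycogen synthase, fell from 6293, 6155 and 5598 to 1990, 1457 and 1740, and GDB1, the debranching enzyme, from 4048, 4003 and 3599 to 1121, 989 and 1030. All 10 trehalose genes fell, with a median of −0.65 and a median of 68.1% of the distance remaining among the 9 displaced members. TPS1, the trehalose-phosphate synthase, had 9415 on each 30 min array and 6318, 6363 and 6469 at 60 min, a fall of 0.55, while its partner phosphatase TPS2 fell by 1.38. The difference between both lists was not tested. HXK1, a hexokinase induced under stress, fell by 1.34 and the pentose phosphate genes SOL4 and TKL2 by 1.39 and 1.56.

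Respiratory chain genes fell in 29 of 44 cases and rose in 4, with a median of −0.35, and CYC7, the stress-induced cytochrome c, fell most (−1.80). This compares with 39.4% of all genes called lower, and in the intensities as deposited 17 fell and 7 rose with a median of −0.11, against 26.3% of all genes. Of 34 oxidative stress genes 16 fell and 6 rose, against 39.4% and 32.2% of all genes, and as deposited 10 fell and 9 rose. The list median of −0.15 became 0.00 as deposited, so no direction is given for the list, while the peroxiredoxin TSA2 (−1.59) and the peroxidase GPX1 (−1.31) fell. Medians of the citrate cycle, mitochondrial ribosome, ubiquitin, mRNA decay, mating, G2 and M phase and endoplasmic reticulum folding lists were within 0.15 of 0 and changed sign in the intensities as deposited, so no direction is given for them.

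**Figure D3:**
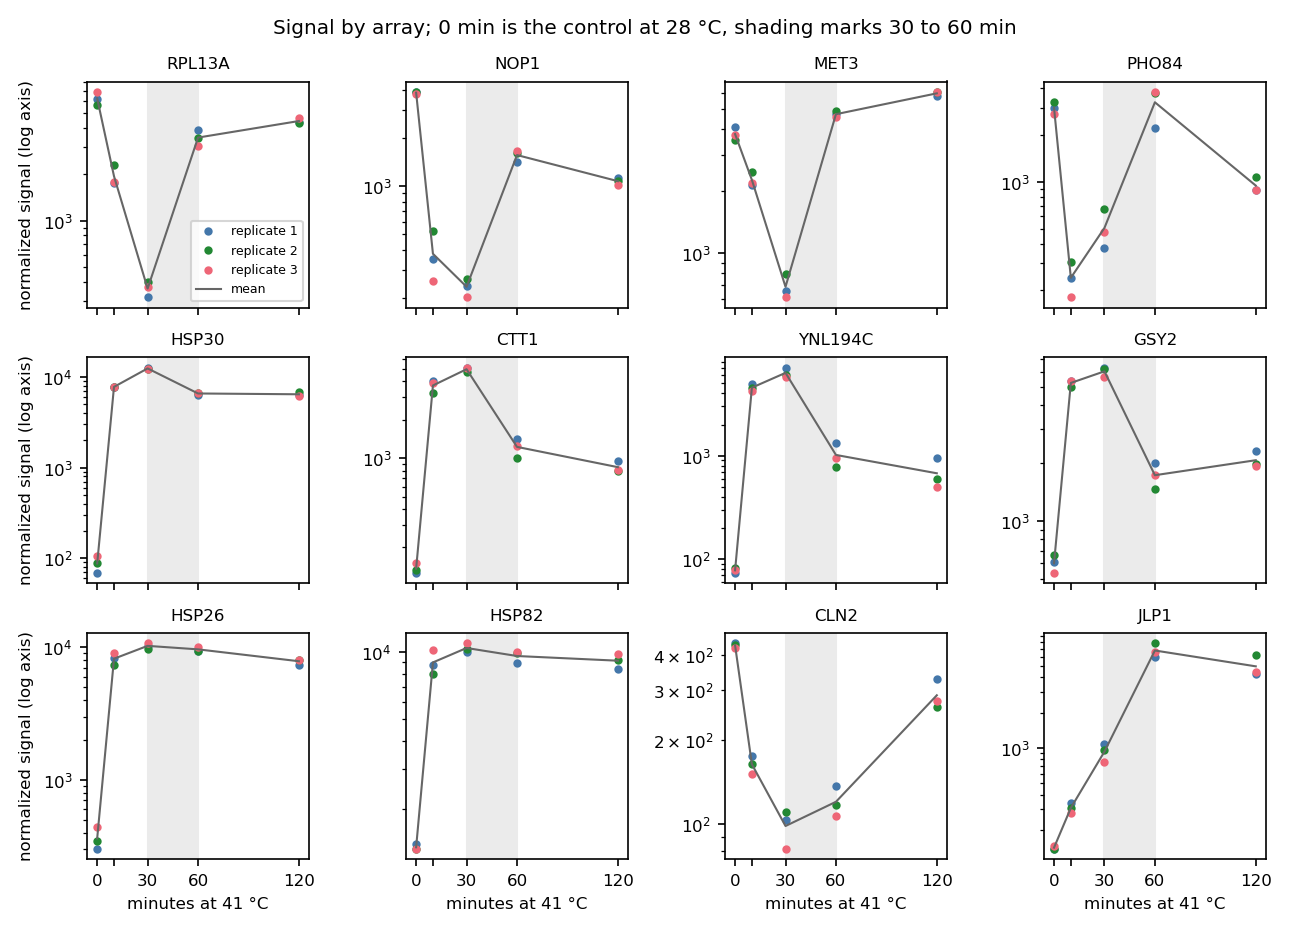
Normalized signal (log axis) of 12 genes on each array of the control at 0 min and of 10, 30, 60 and 120 min at 41 °C, with points for replicates 1 to 3, a line through the group means and shading from 30 to 60 min. RPL13A, NOP1, MET3 and PHO84 rose, HSP30, CTT1, YNL194C and GSY2 fell, HSP26, HSP82 and CLN2 had no called change, and JLP1 rose away from control.

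Chaperone genes fell with a smaller median and unevenly. Of 28 cytosolic chaperone genes 18 fell, against 39.4% of all genes, 4 rose and 6 were not called, with a median of −0.41 (16, 5 and −0.32 as deposited for falls, rises and median), and a median of 77.2% of the log2 distance of the 17 displaced members remained. SSA4, the inducible Hsp70, had 16121, 17033 and 16121 at 30 min and 7474, 8430 and 7926 at 60 min, against 416, 466 and 455 in the control. Its fall of 1.04 (SE 0.12) left 78.7% of the distance. HSP104, the disaggregase, fell from 9092, 8777 and 9273 to 6889, 7230 and 6547 (−0.39, SE 0.09, adjusted p = 3.4e-04), and HSP42, a small heat shock protein, from 6972, 8126 and 9092 to 4670, 3791 and 4461 (−0.88). The steepest falls were those of the Hsp40 APJ1 (−1.70), of BTN2 and CUR1 (−1.38 and −1.28), which sort misfolded proteins, and of the Hsp110 SSE2 and the nucleotide exchange factor FES1 (−1.35 each).

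HSP82, the inducible Hsp90, stayed at 9996, 10344 and 10935 and then 8894, 9910 and 9996, a change of −0.12 (SE 0.08, adjusted p = 0.18). HSP26, the small heat shock protein that binds unfolding proteins, stayed at 10264, 9757 and 10694 and then 9415, 9415 and 10076, while its control arrays had 302, 346 and 439. In both genes the groups touched or overlapped and the 95% interval of the change lay within ±0.5. With arrays scaled by their medians both were called lower, with changes of −0.31 for HSP82 (adjusted p = 0.0015) and −0.27 for HSP26 (adjusted p = 0.0095). SSA1 was the brightest gene on these arrays, so quantile normalization fixed its change at 0.00 and no statement on SSA1 follows. SSA2, counted among the falls, lay 0.64 above control on each 30 min array and 0.34 on each 60 min array. These equal values come from equal ranks, so its change of −0.30 shows no spread between replicates. HSP30, a plasma membrane heat shock protein, fell from 12661, 12187 and 12318 to 6363, 6712 and 6599 (−0.91) but was still 5.05 above a control of 68.7, 87.6 and 107. The chaperones that rose were ZUO1 (1.32) and SSZ1 (1.49), the ribosome-associated Hsp40 and Hsp70, with JJJ3 (0.72) and JJJ1 (0.22). All of these had been below control at 30 min.

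**Figure D4:**
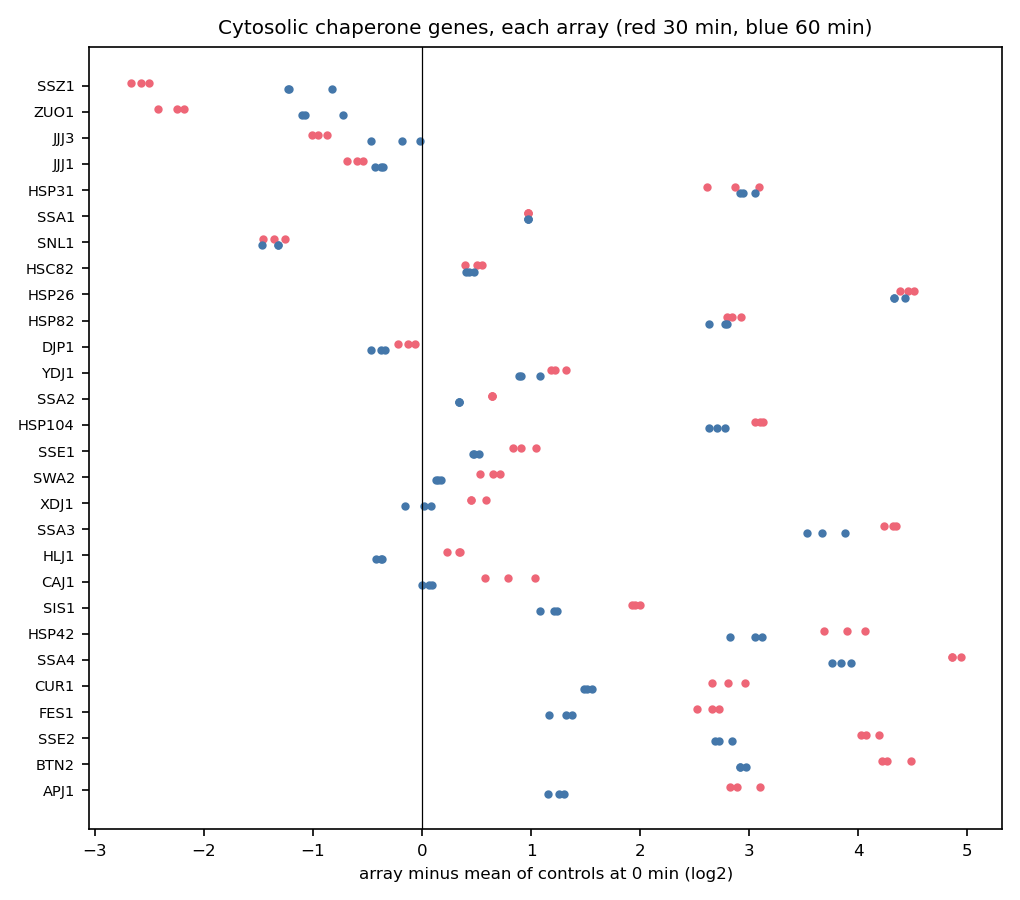
Log2 distance of each 30 min array (red) and 60 min array (blue) from the mean of the controls at 0 min for the 28 measured cytosolic chaperone genes, ordered by change. APJ1, BTN2 and SSE2 fell most, HSP26, HSP82 and HSP31 overlap between both times, and ZUO1 and SSZ1 approached control from below.

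Among the helpers of Hsp90 8 of 12 fell, against 39.4% of all genes, and 3 rose, with a median of −0.37. As deposited 5 fell and 4 rose, with a median of −0.19. AHA1, which stimulates the ATPase of Hsp90, fell by 0.81 and TAH1, of the R2TP complex, rose by 1.48 past the control level. Mitochondrial chaperones fell in 11 of 16 cases, or 8 as deposited, against 39.4% and 26.3% of all genes, led by the Hsp40 MDJ1 (−1.60) and the disaggregase HSP78 (−0.76). KAR2, the Hsp70 of the endoplasmic reticulum, stayed high without a called change, 1.03 above control at 30 min and 0.89 at 60 min. Proteasome genes fell in 27 of 43 cases and rose in 4, with a median of −0.29, against 39.4% of all genes called lower, but as deposited 8 fell and 7 rose, with a median of −0.06, fewer falls than the 26.3% of all genes, so the list is given no direction. RPN4, the activator of proteasome genes, fell from 5264, 4438 and 5280 to 3040, 2993 and 2581 (−0.77), and UBI4, the polyubiquitin gene, from 9273, 8894 and 10344 to 6498, 7100 and 7474 (−0.43).

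Transcripts of stress regulators fell in 20 of 33 cases and rose in 5, with a median of −0.23, and as deposited 14 fell and 5 rose, with a median of −0.07. The shares of all genes called lower were 39.4% and 26.3%. HSF1 itself had 1153, 1220 and 1385 at 30 min and 831, 843 and 906 at 60 min, next to a control of 763, 809 and 804 (−0.49, SE 0.08). XBP1, a stress-induced repressor, fell by 1.48, GIS1, a factor of the response to nutrient depletion, by 1.13, and CIN5, a bZIP factor of salt tolerance, fell by 1.78 to its control level. MSN2 fell by 0.30 but was not called as deposited (−0.07, adjusted p = 0.51). MSN4 (−0.15, adjusted p = 0.10) and YAP1 (−0.13, adjusted p = 0.22) were not called, though each was called lower under 1 of 19 alternatives. In the other direction IFH1, a coactivator of ribosomal protein genes, rose by 0.98 and TOD6, a repressor of ribosome biogenesis genes, by 1.11, and SFP1 was not called (0.10, adjusted p = 0.41). In the Ras and protein kinase A pathway RAS2 fell by 1.33, YAK1 by 1.22, the G protein subunit gene GPA2 by 1.18 and the catalytic subunit gene TPK2 by 1.09. In all 9 of its 18 genes fell, against 39.4% of all genes, and 2 rose, with a median of −0.22, and as deposited 8 fell and 5 rose, with a median of −0.06.

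Full return was less common than partial return. Back at the control level, meaning not called or within 1.2-fold at 60 min, were 61 of the 729 higher and 97 of the 802 lower genes. Besides MET10, PHO84, GCN4 and NEW1, the lower genes that returned included the transketolase TKL1, from 2020, 2142 and 1593 to 5889, 5439 and 5410 against a control of 6071, 6155 and 5739. SNU13, a protein of both the spliceosome and box C/D particles, went from 1209, 1221 and 1137 to 5174, 5103 and 5135, within 0.05 of its control. Among the higher genes that returned were XKS1, the xylulokinase, from 1325, 1126 and 1410 to 380, 274 and 324, and YOR186W, from 718, 574 and 483 to 97.0, 68.2 and 86.0. Class medians over the later heat times, which did not enter the classes, stayed near 0, at −0.0044, 0.018 and 0.016 for the higher and −0.06, −0.06 and −0.04 for the lower genes on the 3 arrays at 360 min.

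**Figure D5:**
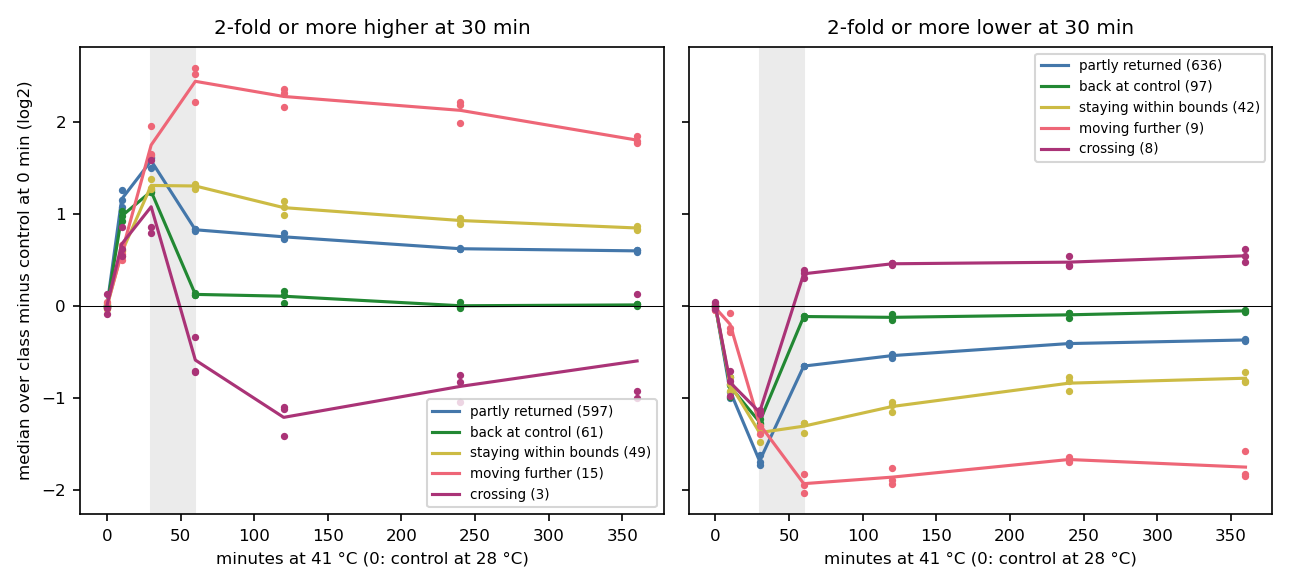
Median log2 distance from the control at 0 min over the genes of each class, for genes 2-fold or more higher (left) or lower (right) at 30 min, by time at 41 °C up to 360 min, with a point per array and a line through the means. The classes were defined from the times 0, 30 and 60 min, and their order at 60 min was kept at 360 min except that points of the 3 crossing higher genes scatter widely.

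Overshoot was rare and small among the genes 2-fold or more from control at 30 min. Only 8 genes that were low at 30 min were called on the higher side at 60 min by 1.2-fold or more, and no gene of the 1531 crossed by 2-fold. These were MET3, RPS14B, ERG3 and TAH1, described above, SPE2, the S-adenosylmethionine decarboxylase of polyamine synthesis (604, 678 and 601, then 1771, 1781 and 1955, control 1454, 1563 and 1417), GLY1, the threonine aldolase (0.38 above control), MTO1 of mitochondrial tRNA modification and ATC1. The class median on the 360 min arrays was 0.48, 0.61 and 0.54 above control. Of the genes high at 30 min only 3 crossed downward, all tRNA genes (TGA1, YNCO0029C and YNCL0004C), and none were left without replicate 1 or without replicate 3 of the 60 min arrays. With genes chosen at 10 min, 11 of 456 higher and 12 of 429 lower genes crossed by 1.2-fold or more. Of these, 1 and 2 crossed by 2-fold or more.

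The genes without a called change fell into 49 higher and 42 lower ones whose 95% interval of change lay within ±0.5, and 14 with wider intervals. HSP31 was called higher without replicate 2 of the 30 min arrays (0.23, adjusted p = 0.031). Beside HSP26, HSP82 and HSP31 the higher ones held the stress genes DDR2 (13005, 12520 and 12520, then 11427, 11427 and 12061) and HSP12, a membrane-protecting hydrophilin (13749, 11427 and 13251, then 12838, 11281 and 10694). With arrays scaled by their medians DDR2 and HSP12 were called lower (−0.27 and −0.30), and DDR2 also in a fit of the 6 arrays alone (−0.12). The wall proteins SED1 and PIR3 and PRM5, a target of cell wall integrity signalling, had no called change either, though PRM5 was called higher as deposited (0.32, adjusted p = 0.016) and without replicate 1 of the 60 min arrays (0.27, adjusted p = 0.034). SRL3 stayed at 2062, 1758 and 2178 and then 1625, 1973 and 1996, against 162, 135 and 141 in the control. At 360 min the median distance of these 49 genes was 0.84, 0.87 and 0.83, compared with 1.28, 1.38 and 1.27 at 30 min.

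Among the lower ones were CLN1 and CLN2, the G1 cyclins. CLN2 had 103, 110 and 81.4 at 30 min and 136, 117 and 107 at 60 min, against 442, 437 and 425 in the control, a change of 0.14 (SE 0.09, adjusted p = 0.17), and was called higher under 3 of 19 alternatives. CLN1 had 128, 171 and 141 and then 132, 114 and 106, against 688, 611 and 717. CLN1 was called lower with an offset of 20 (−0.28, adjusted p = 0.028) or 50 (−0.23, adjusted p = 0.044), and without replicate 1 of the 30 min arrays (−0.22, adjusted p = 0.045) or of the 60 min arrays (−0.22, adjusted p = 0.0495), so its level was not shown to have held. The daughter-cell and bud-site genes EGT2, AMN1, PRY3, BUD8 and BUD9 stayed low as well. In the list of 54 genes of G1 and S phase 19 rose, near the 32.2% of all genes, and 5 fell, against 39.4%, and as deposited 36 rose, against 42.3%, and 3 fell. RNR1, the large ribonucleotide reductase subunit, rose by 1.56. DBP2 stayed at 368, 287 and 295 and then 285, 384 and 321, against 2700, 2774 and 2466, and LYS9 of lysine synthesis at 737, 816 and 784 and then 996, 733 and 767, against 5439, 5062 and 5024. AAH1, the adenine deaminase, had 104, 121 and 83.2 and then 126, 125 and 132, against 1292, 1437 and 1251, and was called higher under 8 of 19 alternatives. At 360 min the 42 genes had a median of −0.72, −0.82 and −0.82.

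A few genes moved further from control. JLP1, a dioxygenase that releases sulfite from sulfonates, had 138, 138 and 146 in the control, 1080, 960 and 752 at 30 min and 5987, 7818 and 6577 at 60 min. This rise of 2.73 (SE 0.18, adjusted p = 3.2e-12) was the largest away from control, and the other 14 genes that rose further changed by less than 1. They included TDH1, a glyceraldehyde-3-phosphate dehydrogenase (4903, 4938 and 4056, then 5508, 5987 and 5394, a rise not called under 4 of 19 alternatives), PDC6, a pyruvate decarboxylase isoform low in sulfur amino acids (1561, 1215 and 1302, then 1664, 1912 and 1636), BNA2 of NAD synthesis, and the wall protein genes PST1 and CWP1. The 9 that fell further included DAL5, DAL7, DAL2 and DCG1 of the allantoin pathway, which are turned on by poor nitrogen sources. The fall of DCG1 was not called as deposited (−0.079, adjusted p = 0.41). DAL5, the allantoate permease, had 7430, 6863 and 7027 in the control, 2936, 3229 and 2919 at 30 min and 1399, 1486 and 1406 at 60 min (−1.02, SE 0.09). Of 37 genes of nitrogen use 19 fell, against 39.4% of all genes, and 9 rose, with a median of −0.27, and as deposited 16 fell and 11 rose, with a median of −0.06. Without replicate 2 of the 30 min arrays or replicate 2 of the 60 min arrays, 5 of the lower genes rather than 9 were called as falling further.

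Genes not called at 30 min but called between 30 and 60 min numbered 192 upward and 356 downward, mostly by small amounts. By 2-fold or more 4 rose, namely MUP1, GAS2, a glucan-elongating enzyme (249, 312 and 243, then 806, 1006 and 975), the small nucleolar RNA SNR73 and TRS65 of the TRAPP complex. Of 17 that fell 2-fold, 14 were tRNA genes and 1 was the 25S ribosomal RNA gene RDN25-1, and the protein-coding ones were DAL80, a repressor of nitrogen genes (1016, 1091 and 1229, then 303, 302 and 281), and HOF1, a cytokinesis protein (412, 356 and 467, then 126, 153 and 122). A gene not called at 30 min may still have moved earlier. DAL80 had a log2 distance from control of 1.33 at 10 min and −1.34 at 60 min, and MUP1 of −1.03 and 1.54.

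All 91 measured tRNA genes and all 4 ribosomal RNA genes were called lower at 60 min, with medians of −0.89 and −1.50, against 39.4% of all genes. Copies of a tRNA are near-identical and share probes, so these are not 91 separate measurements. The ribosomal RNA control probe sets of the array moved with them, at log2 signals of 7.79, 9.37 and 8.08 at 30 min and 7.08, 7.42 and 6.98 at 60 min (exact permutation p = 0.1, the smallest that 3 against 3 arrays allow). Replicate 2 stood apart at 30 min. RDN25-1 had 1727, 5889 and 1388 at 30 min and 456, 743 and 308 at 60 min, a fall of 2.11 (SE 0.58) that was 1.49 without that replicate. Without it 89 of the 91 tRNA genes and 2 of the 4 ribosomal RNA genes were called lower. These RNAs lack a poly(A) tail, and the part of the amount of such RNA carried into the label was not tested. Of 57 small nucleolar RNAs 29 were lower, against 39.4% of all genes, and 10 higher, against 32.2%, and as deposited 22 were lower and 14 higher.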

How the data were processed

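The authors deposited linear intensity values, for which the submitters' processing notes name MAS5. Its version and scaling target are not stated there. Per the labels' protocols, biotinylated cRNA was made from 20 µg of total RNA. The values have a floor of 20, at which 3.69% to 5.30% of an array's probe sets lie. Of 9335 probe sets 6504 name 1 gene, 328 several and 2443 none. Only the first kind was used, with the brightest probe set for each of 315 genes that have several, which left 5656 genes.

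Array medians differed by a ratio of 1.28, above the limit of 1.2 set for scaling, so quantile normalization was applied over these genes. Log2 was taken after adding the 10th percentile, 114. One mean per group was fitted over all 27 arrays with limma 3.58.1 in R 4.3.3 and eBayes with a trend, and p-values were adjusted by Benjamini-Hochberg over all genes. P-values rest on the spread between replicates within groups, pooled over all 27 arrays. The main fit takes no account of repeated sampling of a culture. On simulated data for this comparison with 5656 genes, 99 of 100 changes of 1 and 87 of 100 changes of 0.5 on the log2 scale were called, with 6 false calls. The simulation drew independent noise around normalized values and left all other genes unchanged between 30 and 60 min. Errors from scaling or from repeated sampling of a culture were therefore outside it.

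Members, classes and the 55 gene lists, which overlap in part, were chosen with earlier results of these data known, and list counts carry no test. Named genes are the 10 largest rises and falls whose arrays do not overlap and whose higher mean exceeds the median gene, up to 4 called members per list, up to 6 per class and a set of 26 genes, and others in the text were chosen after their values were seen. Alternatives changed scaling, offset, dim genes, probe sets, trend, arrays, replicate block, control and single arrays. Promoter motifs were planned but not examined, since no sequence was used here.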

Additional observations from a re-analysis of the deposited data

How the results depend on the processing

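The counts of higher and lower calls stayed within 1.5 times of those reported under every alternative run, from 1564 to 2393 higher and from 1490 to 2309 lower. The setting without dim genes left out the dimmest 25%, so its counts, 1564 higher among them, come from fewer tested genes. The extremes came from the intensities as deposited, the omission of dim genes and a term for the array background. In none was a gene called in both with the opposite sign, except 3 genes with probe sets averaged and 1 with plain probe sets only. Falls of 2-fold or more numbered 427 with an offset of 20 and 148 as deposited. For genes high at 30 min, those without a called change numbered 80 with an offset of 20 and 105 as deposited, and those moving further 24 with a background term. Genes crossing downward numbered 10 with an offset of 20, 8 with 50, and 0 as deposited or with plain probe sets. For genes low at 30 min and an offset of 20, 79 had no called change, 20 moved further and 14 crossed. With an offset of 50 15 moved further, with the control at 120 min 18, and as deposited 5, with 16 crossing. A distance of 1.5-fold gave 1158, 158, 33 and 12 high genes returning, without call, moving further and crossing, and 1143, 177, 41 and 19 low ones. Chosen at 10 min, the high genes numbered 435, 18, 3 and 11, and of the low ones 391 returned and 2 moved further. Leaving out each array gave 0 to 4 genes crossing downward and 5 to 12 low genes moving further. The cause of these shifts was not tested, beyond the wider or narrower choice of genes that the 1.5-fold and 10 min settings make.

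Among the named genes, changes that turned sign were all small. The genes called with the opposite sign under averaged or plain probe sets, counted above, are not among these. As deposited, STE6 changed by 0.021, STE3 by 0.064, SRL3 by 0.15, CLN1 by 0.014 and MF(ALPHA)2 by 0.035. With array medians, SRL3 changed by 0.0007, HSP31 by −0.038 and ACT1 by −0.10, and with probe sets averaged DBP2 by −0.026. Without single arrays HSP31 ranged from −0.0093 to 0.23, DBP2 from −0.044 to 0.13 and LYS9 from −0.047 to 0.15, and of these only HSP31 changed its call, to called higher at 0.23.

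The labels do not say that a replicate number marks the same culture, and deviations from the group means of same-numbered arrays at 30 and 60 min correlated with r of 0.31, 0.07 and −0.26 across genes. Replicate 1 alone correlated best with its own number. With the replicate block 1844 genes were called higher and 2266 lower, or 1720 and 2124 with only the 6 arrays of the comparison.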
